A study of Mus musculus with 6 samples.

Results

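The genes described here encode the GDNF (glial cell line-derived neurotrophic factor) family of ligands and their receptors, measured by RNA sequencing in cultured mouse sensory neurons. They were chosen by symbol: Ret, Gfra1, Gfra2, Gfra3, Gfra4, Gdnf, Artn, Nrtn and Pspn, 9 of the 45777 genes in the deposited table, and all 9 were found. The cultures came from dorsal root ganglia (DRG), the clusters of sensory neuron cell bodies beside the spinal cord. The labels give wild-type female C57BL/6 mice aged 8 weeks as their source. In 3 samples the culture received PBS as the negative control, and in 3 it received recombinant oncomodulin (ONCM) at 100 ng/ml; treatment lasted 12 hours. Oncomodulin is a calcium-binding protein of the parvalbumin family. The labels name no transgene, state biological replicates without naming separate cultures or animals, and do not say how many animals were pooled, so the spread behind each p-value is that of these samples and may be partly technical.

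The ligands of this family are small secreted dimers related to TGF-beta. Each binds a GFR-alpha co-receptor that is anchored to the outer membrane by a lipid and has no kinase of its own, and the pair then brings together molecules of RET, the receptor tyrosine kinase shared by all of them. The preferred pairs are GDNF with GFRA1, neurturin (Nrtn) with GFRA2, artemin (Artn) with GFRA3 and persephin (Pspn) with GFRA4. In the DRG, RET is known from nonpeptidergic pain-sensing neurons, which come to depend on this family after birth, and from some touch-sensing neurons, while Schwann cells are a known source of GDNF after nerve injury.

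Library totals ran from 53770820 to 64477014 counts. In CPM (counts scaled to library size, adjusted between libraries by TMM), 10 pan-neuronal markers summed to between 21536 and 22358 with PBS and between 19354 and 20528 with ONCM, with none at 0, so the neuronal label was met. Markers of other cells were also present: 10 Schwann and satellite glia genes summed to between 2785 and 2849 CPM with PBS and between 2949.8 and 3069.8 CPM with ONCM, and 10 macrophage genes to between 39.8 and 45.0 CPM with PBS and between 152 and 159 CPM with ONCM. The labels call every sample female, yet Xist, the RNA of the inactive X chromosome, stood between 0.485 and 0.588 CPM in the PBS libraries and between 413 and 513 CPM in the ONCM libraries. Ddx3y, Uty, Kdm5d and Eif2s3y on chromosome Y were all lower with ONCM but still present. Ddx3y had 61.0, 58.1 and 62.4 CPM with PBS and 16.2, 16.9 and 15.1 CPM with ONCM. The PBS libraries thus held chromosome Y transcripts with almost no Xist, and the ONCM libraries held both, against the female label. The treatment and the source of the cells therefore cannot be told apart for any gene below. Ocm, the gene of oncomodulin, had 2 counts in 1 PBS library, 4 in 1 ONCM library and 0 in the others.

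The family divided evenly. Of the 8 members with enough counts to test, 4 rose (Ret, Gfra1, Gfra3 and Gdnf) and 4 fell (Gfra2, Gfra4, Artn and Nrtn) with ONCM by edgeR's quasi-likelihood test at an adjusted p-value under 0.05, adjusted over all 20354 tested genes. Among all tested genes 48.3% passed, 23.9% upward and 24.4% downward. The members' 8 of 8 is above that share, a description for which no test was made. The PBS and ONCM libraries did not overlap in CPM for any of the 8, as for 55.6% of all tested genes. The remaining member, Pspn, was counted too rarely to test.

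**Figure D1:**
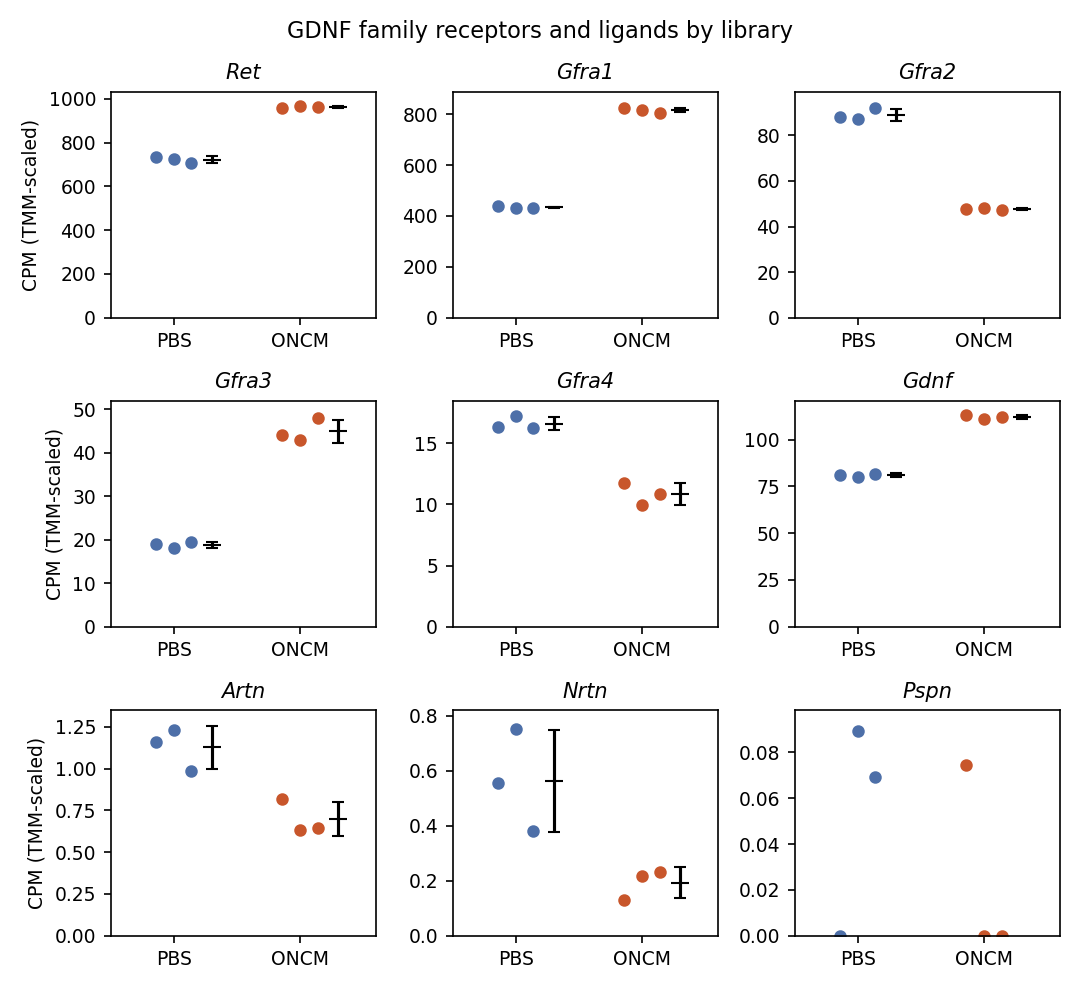
Points show TMM-scaled CPM (y axis, starting at 0, a different scale in each panel) in the 3 PBS and 3 ONCM libraries for each of the 9 genes, and black marks show the group mean with its SD (n = 3), left out for Pspn. The groups separate in all panels but that of Pspn, where 3 of the 6 libraries have no count.

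Ret, the shared signalling receptor (chromosome 6, 118151748 to 118197744 in GRCm38.p6), measured 734, 726 and 705 CPM in the 3 PBS libraries. With ONCM it measured 957, 969 and 963 CPM. Each ONCM library was above each PBS library. The rise was 1.33-fold (0.42 on the log2 scale, SE 0.03, adjusted p = 2.07e-10 by edgeR). By mean CPM, which does not account for transcript length, 99.4% of tested genes were lower than Ret.

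Gfra1, the co-receptor that GDNF prefers (chromosome 19, 58235581 to 58455946), was at 437, 432 and 432 CPM in the control libraries, against 825, 817 and 806 CPM with ONCM. The libraries within each group lay close together and the groups were far apart. Gfra1 rose 1.88-fold (log2 fold change 0.91, SE 0.03, edgeR adjusted p = 3.53e-15). An antisense gene, Gm16277, shares 416 exonic bases with Gfra1 on the opposite strand in the GENCODE M21 annotation, and the table has no row under that symbol, so reads of the pair may be counted together.

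Gfra3, the artemin co-receptor of peptidergic and cold-sensing neurons (chromosome 18, 34689898 to 34720387), had the largest rise of the 8. Its PBS values were 18.9, 18.2 and 19.6 CPM, and its ONCM values 44.2, 42.8 and 48.0 CPM. The lowest ONCM library was thus more than 20 CPM above the highest PBS library. The change was 2.38-fold (log2 fold change 1.25, SE 0.05, edgeR adjusted p = 7.29e-13), and 94.4% of all tested genes had a smaller log2 fold change in size.

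Gfra2, the neurturin co-receptor known from nonpeptidergic and low-threshold touch neurons (chromosome 14, 70890107 to 70979840), moved the other way. Its PBS libraries held 88.1, 87.0 and 92.1 CPM and its ONCM libraries 47.7, 48.0 and 47.3 CPM. Every ONCM library was far below every PBS library, and the 3 ONCM values were within 1 CPM of each other. Gfra2 fell to 53.5% of its PBS level (log2 fold change -0.90, SE 0.04, edgeR adjusted p = 4.78e-13).

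Gfra4, the persephin co-receptor, best known from thyroid C cells (chromosome 2, 131039632 to 131043088), had 16.3, 17.2 and 16.2 CPM with PBS, and ONCM libraries had 11.8, 9.93 and 10.9 CPM. The groups did not overlap. It fell to 65.3% of the PBS level (log2 fold change -0.61, SE 0.07, edgeR adjusted p = 6.46e-07). The microRNA gene Mir6973b lies within Gfra4 on the same strand, shares 80 exonic bases with it and had 2 counts in each library. How reads over the shared bases were assigned is not known.

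Among the ligands, Gdnf alone was abundant. It lies on chromosome 15 (7810048 to 7837580) and stood at 81.3, 79.9 and 81.7 CPM with PBS, against 113, 111 and 112 CPM with ONCM. The values within each group differed by less than 3 CPM. Gdnf rose 1.38-fold (log2 fold change 0.47, SE 0.03, edgeR adjusted p = 9.00e-10). In these bulk cultures a change in the number of cells that make a transcript and a change in the amount per cell cannot be told apart, and this holds for each member.

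Artn (chromosome 4, 117925908 to 117930795) had 75, 69 and 57 counts with PBS, compared with 44, 38 and 36 with ONCM, or 1.16, 1.23 and 0.986 CPM against 0.818, 0.633 and 0.645 CPM. The groups did not overlap. Artn fell to 61.9% of its PBS level (log2 fold change -0.69, SE 0.22, edgeR adjusted p = 0.0132). The call was lost with DESeq2 (-0.69, adjusted p = 0.0943) and, with edgeR, without PBS replicate 2 (-0.63, adjusted p = 0.0523) or without ONCM replicate 2 (-0.62, adjusted p = 0.0518).

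Nrtn (chromosome 17, 56751323 to 56757548) had 36, 42 and 22 counts with PBS and 7, 13 and 13 with ONCM, in CPM 0.557, 0.751 and 0.381 against 0.130, 0.217 and 0.233. All ONCM libraries were below all PBS libraries. Nrtn fell to 34.8% of its PBS level (log2 fold change -1.52, SE 0.37, edgeR adjusted p = 0.00244), with the widest SE of the tested members. On the log2(TPM + 1) scale its log2 fold change was -0.68 and that of Gfra2 -0.94. With log2(TPM + 0.1) the values were -1.39 for Nrtn and -0.95 for Gfra2. The order of the falls on TPM scales thus depends on the value added to TPM. Nrtn passed the low-count filter of 0.176 CPM in 5 of the 6 libraries.

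Pspn, also on chromosome 17 (56999313 to 57000105), had 0, 5 and 4 counts with PBS and 4, 0 and 0 with ONCM. A floor of 3 counts corresponds to between 0.0465 and 0.0558 CPM in these libraries and covers counting error only, since reads that carry no molecular identifier cannot be counted as separate molecules. A difference in Pspn was not detectable at this depth.

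**Figure D2:**
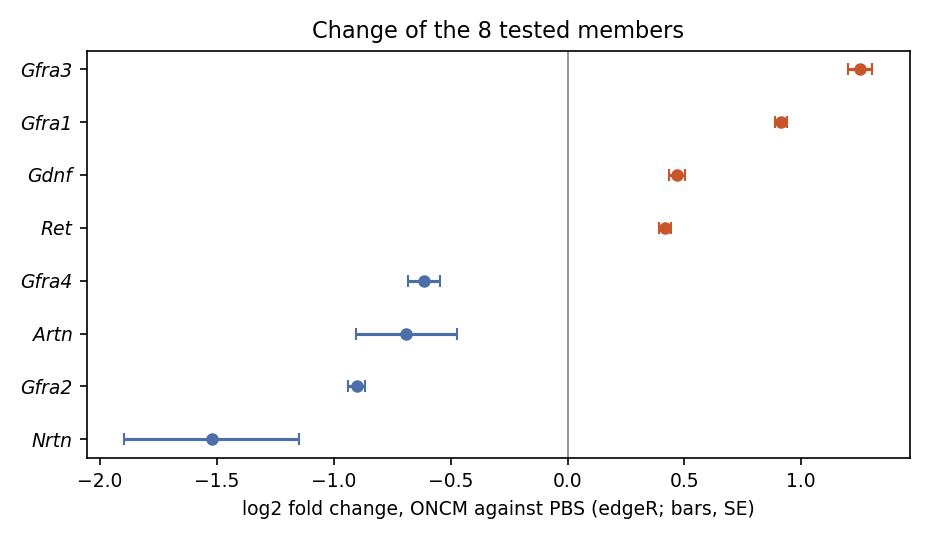
Log2 fold changes of ONCM against PBS (x axis) are plotted for the 8 tested members, with bars for the SE of the edgeR fit on 3 libraries per group. Gfra3 (1.25) and Gfra1 (0.91) lie at the right, Gfra2 (-0.90) and Nrtn (-1.52) at the left, and the bars of Artn (SE 0.22) and Nrtn (SE 0.37) are the widest.

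Windows at 8 RefSeq start sites, from 6 of the 9 members (Gfra1, Gfra4, Gdnf, Artn, Nrtn and Pspn), were searched for motifs. The promoters of the remaining members were not searched. The base sequence is shown for 1 start each of 3 members: Gfra1 and Gdnf, which rose together, and Gfra4, which fell. For Gdnf and Gfra4, which have 2 starts each, the start with a motif match was chosen. Each line gives the 250 bases before an annotated RefSeq start (GRCm38.p6), read 5′ to 3′ on the strand of the gene, with motif matches in capitals.
Gfra1, chr19:58455399-58455648, minus strand: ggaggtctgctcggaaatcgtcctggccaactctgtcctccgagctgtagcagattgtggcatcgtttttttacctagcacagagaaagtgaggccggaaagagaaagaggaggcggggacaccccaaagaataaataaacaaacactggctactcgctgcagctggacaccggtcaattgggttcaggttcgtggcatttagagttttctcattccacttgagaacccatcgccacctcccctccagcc
Gdnf, the more upstream annotated start, chr15:7809798-7810047, plus strand: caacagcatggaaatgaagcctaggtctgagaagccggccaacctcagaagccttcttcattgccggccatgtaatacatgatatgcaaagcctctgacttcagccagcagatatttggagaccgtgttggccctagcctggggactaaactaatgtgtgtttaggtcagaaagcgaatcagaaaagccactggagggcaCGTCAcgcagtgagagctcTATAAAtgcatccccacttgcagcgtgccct
Gfra4, second annotated start, chr2:131042683-131042932, minus strand: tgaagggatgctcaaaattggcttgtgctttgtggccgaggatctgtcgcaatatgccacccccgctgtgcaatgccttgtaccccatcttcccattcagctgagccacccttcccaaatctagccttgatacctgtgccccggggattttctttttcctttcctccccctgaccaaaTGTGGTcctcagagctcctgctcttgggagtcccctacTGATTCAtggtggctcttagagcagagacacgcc

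On both strands, 5 motifs were searched, none of which contains another: a loose AP-1 motif TGANTCA, the CRE half-site TGACG, the STAT motif TTCNNNGAA, the RUNX motif TGTGGT and the TATA motif TATAAA. In these, N stands for any base. The printed Gdnf window held a TATA match that begins 31 bases before the start and a CRE half-site, on the opposite strand, that begins 50 bases before it. The printed Gfra4 window held a match to the loose AP-1 motif 34 bases and a RUNX match 72 bases before the start. The AP-1 match read TGATTCA, and it rests on the middle base being left free. None of the 5 motifs was found in the other 6 windows, which are those of Gfra1, Artn, Nrtn and Pspn and of the other start of Gdnf and of Gfra4. Among the 32851 windows of the same length in the RefSeq promoter table, 12.4% held the TATA motif, 17.8% the CRE half-site, 6.75% AP-1, 14% RUNX and 7.02% STAT, so matches of this kind are common, and they describe the letters only.

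Levels of different genes were compared in TPM, the deposited values that account for transcript length. In the PBS libraries the order from high to low was Ret at 263 ± 8.02 TPM (SD, n = 3), Gfra1 at 226 ± 4.12, Gfra2 at 65.6 ± 1.52, Gdnf at 46.0 ± 0.501, Gfra4 at 26.1 ± 0.747 and Gfra3 at 24.0 ± 0.834 TPM, followed by Nrtn at 1.34 ± 0.454, Artn at 0.983 ± 0.350 and Pspn at 0.157 ± 0.138 TPM. Nrtn and Artn overlapped, and each other neighbour in this order was separated in all libraries. With ONCM the order became Gfra1 at 406 ± 8.13 TPM, Ret at 335 ± 1.90, Gdnf at 61.2 ± 0.634, Gfra3 at 54.8 ± 2.51, Gfra2 at 33.8 ± 0.683 and Gfra4 at 16.8 ± 1.66 TPM, with Artn at 0.506 ± 0.105, Nrtn at 0.449 ± 0.154 and Pspn at 0.0846 ± 0.146 TPM. Artn and Nrtn again overlapped. Gfra1 had passed Ret, and Gfra3 had moved from below Gfra4 to above both Gfra4 and Gfra2. The Artn TPM values carry a further uncertainty. The length implied by its counts and deposited FPKM ran from 2449 to 4408 bases over the libraries, against 5403 to 5469 bases for Gfra1, and the table lists 11 RefSeq transcripts for Artn.

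The make-up of the co-receptor pool was described as the share of each gene in the summed TPM of Gfra1 to Gfra4, with no test because it is a score over the members. Gfra1 took 66.6%, 66.4% and 65.5% of the sum with PBS, compared with 79.4%, 80.0% and 78.8% with ONCM. Gfra2 took 18.9%, 18.9% and 19.8% with PBS and 6.56%, 6.71% and 6.56% with ONCM. Gfra3 went from between 6.80% and 7.26% to between 10.3% and 11.4%, and Gfra4 from between 7.46% and 7.93% to between 3.00% and 3.59%. No share overlapped between the groups, and Gfra1 was the largest in each library. The summed co-receptor level was 342 ± 3.87 TPM with PBS and 512 ± 7.25 TPM with ONCM (SD, n = 3).

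**Figure D3:**
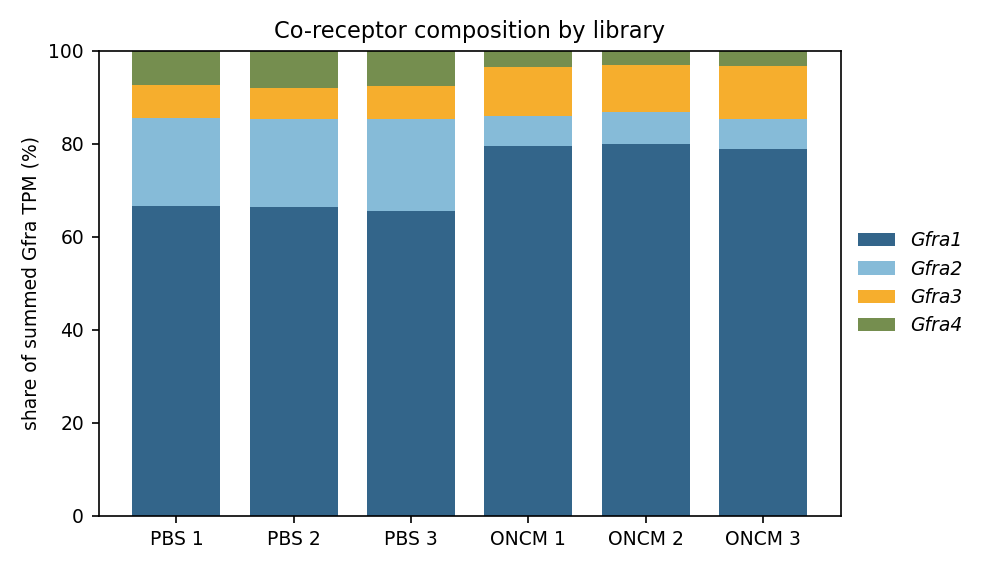
Stacked bars give the percent of the summed Gfra1, Gfra2, Gfra3 and Gfra4 TPM (y axis, 0 to 100%) in each of the 6 libraries. The Gfra1 part is near 66% in the PBS bars and near 79% in the ONCM bars, while the Gfra2 part shrinks from about 19.2% to 6.61% on average.

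Ratios within a library show the same shift without any scaling between libraries. The ratio of Gfra1 to Gfra2 was 3.53, 3.51 and 3.32 with PBS, against 12.1, 11.9 and 12.0 with ONCM. Gfra1 stood at 0.849 to 0.878 of the Ret TPM with PBS and at 1.19 to 1.23 of it with ONCM. The ratio of Gfra2 to Gfra3 was 2.70, 2.78 and 2.72 with PBS and 0.629, 0.653 and 0.574 with ONCM, so the order of this pair was reversed in each library. Gdnf against Gfra1 went from between 0.202 and 0.207 to between 0.149 and 0.153. Against Ret, Gdnf overlapped between the groups, at 0.172 to 0.182 with PBS and 0.181 to 0.184 with ONCM. Gdnf made up 94.9% ± 1.26 of the summed ligand TPM with PBS and 98.3% ± 0.110 with ONCM (SD, n = 3).

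The genes through which RET signals were followed in lists written from general knowledge of the pathway. Of 26 RET adaptors and effectors, 6 rose, 10 fell and 10 did not pass, with a median log2 fold change of -0.04 (all tested genes, -0.002). Among all tested genes 23.9% passed upward and 24.4% downward. The counts of this list and of every list below are to be read beside these shares, and no list was tested as a set. The 4 of these 26 genes with the smallest p-values were adaptor genes. Dok5, a docking protein that binds phosphorylated RET, rose 1.84-fold from 12.1 ± 0.576 to 22.2 ± 0.978 CPM (SD, n = 3), and Shc2 rose 1.35-fold from 127 ± 2.12 to 171 ± 4.83 CPM. Shc1, which links RET to the RAS pathway, fell from 130.2 ± 0.390 to 89.6 ± 3.08 CPM, and Dok4 fell from 206 ± 4.26 to 143 ± 9.32 CPM. Within the Shc and Dok families, members thus went in opposite directions.

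Of 14 other receptors and partners of the ligands 13 were tested, and 4 rose, 5 fell and 4 did not pass (median log2 fold change -0.06). The alternative GDNF receptors rose: Ncam1, the neural cell adhesion molecule, had 100.4, 104 and 105 CPM with PBS, against 157, 165 and 162 CPM with ONCM, and Sdc3, the heparan sulfate proteoglycan syndecan-3, had 167, 163 and 165 CPM against 255, 263 and 261 CPM. These rises were 1.57-fold each (edgeR adjusted p = 1.49e-11 for Ncam1 and 1.83e-12 for Sdc3). Ptprj, a receptor phosphatase, rose 1.78-fold. Sorl1, a sorting receptor that carries GDNF and GFRA1 within cells, had 397, 402 and 369.9 CPM with PBS, and with ONCM 180.1, 184 and 163 CPM. It fell to 45.1% of its PBS level (log2 fold change -1.15, SE 0.04, edgeR adjusted p = 3.85e-12). Gfral, the RET co-receptor for GDF15, had no count in any library.

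Of 14 ERK feedback and target genes, which respond to many growth factor receptors besides RET, 3 rose, 7 fell and 4 did not pass (median log2 fold change -0.20). Etv1, an ETS transcription factor, fell from 132 ± 3.61 to 70.4 ± 2.22 CPM. Spred2, Dusp4 and Spry4, which dampen the pathway, had log2 fold changes of -0.38, -0.55 and -0.45. Named after their values were seen, the 3 that rose were Dusp6, Spry1 and Spry2, also inhibitors, at 0.37, 0.39 and 0.22 on the log2 scale. The inhibitors thus did not move as a group.

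Transcription factors tied to Ret-positive sensory neurons were mostly lower. Of 11 listed, 10 were tested, and 9 fell and 1 rose (median log2 fold change -0.41). Prdm12, a factor of pain-sensing neurons, had 81.7, 80.6 and 74.1 CPM with PBS, against 38.7, 42.8 and 40.4 CPM with ONCM. Mafa, of early Ret-positive mechanoreceptors, fell from 7.50 ± 0.430 to 2.63 ± 0.409 CPM, and Pou4f1 and Isl1, the general sensory neuron factors, had log2 fold changes of -0.62 and -0.44. Isl1 is also among the pan-neuronal markers. Cbfb, the partner of RUNX factors, was the gene that rose (0.14, named after its value was seen). On the log2(TPM + 1) scale it did not pass.

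Markers of neuron classes that carry RET or its co-receptors showed the same lean. Of 20 markers, 18 fell and 2 rose (median log2 fold change -0.77). Mrgprd is the receptor that defines the nonpeptidergic class with Gfra2. It had 57.3, 60.9 and 55.5 CPM with PBS, against 32.3, 33.6 and 30.8 CPM with ONCM. Its log2 fold change was -0.84 (SE 0.05), beside the -0.90 of Gfra2. Trpm8, a marker of cold-sensing neurons named after its value was seen, had -1.05, whereas Gfra3, also of cold-sensing neurons, had 1.25. Th, tyrosine hydroxylase of low-threshold C fibres, and the sodium channel gene Scn11a had log2 fold changes of -0.95 and -1.04, and Lpar3, a lysophosphatidic acid receptor of the nonpeptidergic class, of -0.95. The 2 that rose, named after their values were seen, were P2rx3, an ATP receptor (1.33-fold), and Il31ra, an itch receptor (1.41-fold). Ret rose while most of these markers fell. In the same libraries, 7 of 10 pan-neuronal markers fell, 2 rose and 1 did not pass, with a median of -0.43. The part of neuron number or class make-up in these values was not tested.

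**Figure D4:**
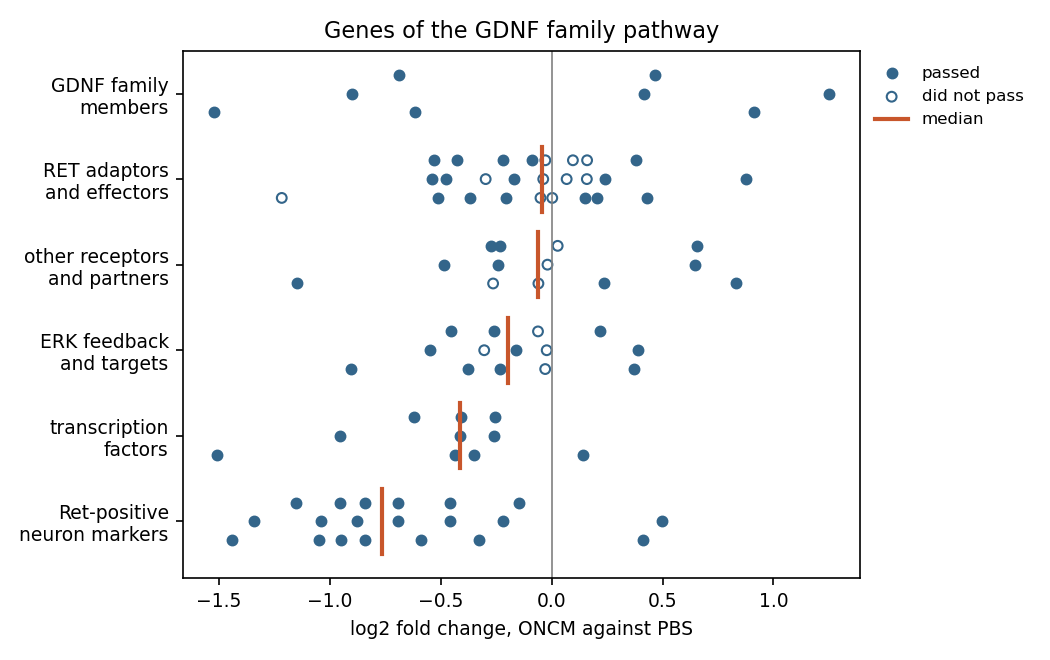
Each point is a tested gene, placed by its log2 fold change of ONCM against PBS (x axis) in 1 of 6 rows, the family members and 5 lists; filled points passed the edgeR test, open points did not, and orange bars mark the medians of the 5 lists. The members lie on both sides of 0, while the transcription factors and the neuron markers lie mostly to its left, at medians of -0.41 and -0.77.

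Other cell types that may carry these genes moved less uniformly, except for macrophages. All 10 macrophage markers rose (median log2 fold change 2.25), and 4 of 6 fibroblast markers rose and 2 did not pass, their sum going from between 296 and 300.1 CPM to between 429 and 449 CPM. Of 10 Schwann and satellite glia markers, 4 rose, 1 fell and 5 did not pass, and the median was 0.03. Of 6 endothelial markers 4 rose and 2 did not pass. The part of these cells in the rise of Gdnf, Gfra1 and Gfra3 was not tested.

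The genes closest in pattern to Ret, Gfra1 and Gfra3 were found among 15275 genes with a mean of at least 1 CPM, by the root mean square difference of log2 CPM over the 6 libraries after centring on PBS. They were Snap91 and Limk2 for Ret (0.013 and 0.017), Mmp25 and Ddx58 for Gfra1 (0.011 and 0.018) and Tnfrsf1b and Cmpk2 for Gfra3 (0.033 and 0.036). Such closeness was common: 750 genes lay within 0.1 of Ret, 109 of Gfra1 and 66 of Gfra3.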

How the data were processed

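RNA was sequenced from 6 samples, 3 per group. The authors deposited 1 table with raw read counts, FPKM and TPM per gene and library, and columns were assigned by the sample codes shared with the labels. The deposited counts were tested as given, the deposited TPM served for levels between genes and as an alternative scale, and the deposited FPKM served for implied lengths and as an alternative for shares. The build is mm10 per the submitters' processing notes. Not given in the sources used here: the aligner, the counting tool and whether strand was used. Coordinates and promoter sequences are from RefSeq (GRCm38.p6, the assembly of mm10), matched by Entrez number for 45679 of 45777 genes. Promoter windows were matched by symbol.

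Counts were filtered with filterByExpr, scaled by TMM and fitted with edgeR 4.0.16 in R 4.3.3 (robust quasi-likelihood F-test, no covariate, Benjamini-Hochberg over 20354 genes, threshold 0.05). SE is the size of the log2 fold change divided by the square root of F. The tests were run on simulated data first. Replicates differed by more than sampling noise (chi-square per degree of freedom 2.76 to 7.09), so all 6 libraries were kept. The members, lists and tests were chosen with earlier results of these data known. Named genes were the members, Ocm, Armc10, the 4 listed genes per pathway list with the smallest p-values, the 2 genes closest in pattern to each of Ret, Gfra1, Gfra2 and Gfra3 (for Gfra2 not reported here), and markers. Alternatives were RLE and upper quartile scaling, DESeq2 1.42.0, other filters, limma 3.58.1 on log2(TPM + 1) and log2(TPM + 0.1), omission of chromosomes X, Y and MT, a replicate block and leaving out each library.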

Additional observations from a re-analysis of the deposited data

How the results depend on the processing

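Under each of the 15 alternatives the 6 members Ret, Gfra1, Gfra2, Gfra3, Gfra4 and Gdnf passed in the direction reported. Ret ran from 0.35 to 0.43 on the log2 scale, Gfra1 from 0.84 to 0.93, Gfra2 from -0.95 to -0.88, Gfra3 from 1.16 to 1.29, Gfra4 from -0.68 to -0.55 and Gdnf from 0.40 to 0.48. Nrtn passed in the 14 alternatives that tested it (-1.74 to -0.68, adjusted p from 0.00178 to 0.0232), and Artn in 11 of 14 (-0.82 to -0.39, adjusted p from 0.0123 to 0.0943). With a filter at a mean of 1 CPM, Artn and Nrtn were not tested and the number of members lowered went from 4 to 2. Armc10, the receptor reported for oncomodulin, rose by 0.19 (edgeR adjusted p = 0.0104), but did not pass on log2(TPM + 1) (0.12, adjusted p = 0.0707), on log2(TPM + 0.1) (0.13, adjusted p = 0.0710) or without ONCM replicate 1 (0.15, adjusted p = 0.0563). Over all genes 4869 rose and 4960 fell (49.5% rises), and on log2(TPM + 1) 3631 rose and 5628 fell (39.2% rises). Replicate numbers are shared between the groups, but samples with the same number did not deviate together (correlations of -0.045, -0.012 and 0.0017 over genes), and a fit with a replicate block called 4733 genes higher and 4864 lower. It changed no call among the members, with 4 raised and 4 lowered. Depth limits Artn, Nrtn and Pspn, and the tests cannot separate treatment from the source of the cells.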

Other observations

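GDF15 signals through RET with the co-receptor GFRAL, outside the family described above. Gdf15, a stress-induced cytokine gene looked up after the other values were seen, measured 15.2 ± 1.03 CPM in the controls and 13.0 ± 1.09 CPM with ONCM (SD, n = 3) and fell slightly (log2 fold change -0.22, SE 0.07, edgeR adjusted p = 0.0170). Gfral had no count in any of the 6 libraries.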
